A study of Mus musculus with 16 samples.

Results

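The microRNAs miR-103-3p (MIMAT0000546) and miR-107-3p (MIMAT0000647) were followed by small RNA sequencing of cDC1s (type 1 conventional dendritic cells, known for presenting antigen taken up from other cells) that had been sorted from the spleen of mice. They are 2 of the 853 mature microRNAs in the count table and were taken by identifier, as a pair of near-identical sequence encoded in pantothenate kinase genes. Both passed the filter on low counts, as did 255 microRNAs in all. The 16 libraries formed 4 groups of 4, all labelled strain C57BL6: cells deficient in both Ire1a and Xbp1 (labelled Xbp1-Ire1 KO, called compound-deficient here), the wild type (WT) of that line, Xbp1-deficient cells (labelled Xbp1 KO) and the wild type of the Xbp1 line. Genotypes are as labelled and the line of each wild-type library is taken from its sample description. The sources used here do not give the deleting allele, any Cre driver, age, sex or whether replicates were separate mice, so intervals and p-values measure the spread between these libraries, which may be technical. No mature microRNA is known to define cDC1s alone, so the label of the cells was not checked against one, and the targeted mRNAs are not part of a microRNA table.

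MicroRNAs guide Argonaute proteins to messenger RNAs, mainly through the seed, bases 2 to 8 of the mature strand. In mammals miR-103 and miR-107 lie in introns of pantothenate kinase genes, whose enzymes start the synthesis of coenzyme A, and they are known as repressors of Dicer, the enzyme that cuts microRNA precursors, and as regulators of insulin sensitivity in liver and fat. IRE1 (gene Ire1a) senses unfolded protein in the endoplasmic reticulum. Its ribonuclease domain splices Xbp1 mRNA, which then encodes an active transcription factor, and is also known to cut other RNAs. Comparing both deficient genotypes, each with its wild type, asks whether removal of Ire1a on top of Xbp1 changes what removal of Xbp1 does.

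The mature strands are shown first because they decide what the counts can tell apart. Both are 23 bases long, from RefSeq for GRCm38.p6, 5′ to 3′, with the seed in capitals:
miR-103-3p: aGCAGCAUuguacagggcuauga
miR-107-3p: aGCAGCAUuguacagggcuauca
Counted from 1 at the 5′ end of miR-103-3p, the only difference is G22C, and the first 21 bases are identical. Of 1679 mature mouse microRNAs in the RefSeq table, these 2 alone hold that stretch, and these 2 alone have this seed. A read that ends at or before base 21 fits both equally, and a single sequencing error at base 22 can turn one into the other. How such reads were assigned is not stated in any source at hand, so the sum of the pair is reported beside each member.

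The same mature miR-103-3p comes from a pair of hairpins and miR-107-3p from one. The hairpins are shown with the 3p strand in capitals, to place the mature strands and the loops in front of them:
Mir103-1: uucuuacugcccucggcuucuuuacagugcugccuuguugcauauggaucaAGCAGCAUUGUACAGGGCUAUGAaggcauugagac
Mir103-2: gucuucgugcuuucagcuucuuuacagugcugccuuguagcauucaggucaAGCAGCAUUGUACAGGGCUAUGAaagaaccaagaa
Mir107: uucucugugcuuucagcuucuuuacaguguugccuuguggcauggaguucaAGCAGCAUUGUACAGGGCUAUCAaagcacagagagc
Over the whole hairpin, identity was 80.2% between Mir103-1 and Mir103-2, 80.5% between Mir103-1 and Mir107 and 83.9% between Mir103-2 and Mir107. The count of miR-103-3p is therefore the output of both of its hairpins together and says nothing of either alone.

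In GRCm38, with hosts from GENCODE M21, Mir103-1 lies at chr11:35782396-35782481 on the plus strand in intron 5 of Pank3. Mir103-2 lies at chr2:131288052-131288137 on the plus strand in intron 5 of Pank2. Mir107 lies at chr19:34820687-34820773 on the minus strand in intron 5 of Pank1. Intron numbers are those of a single coding transcript taken for each host, which has 6 introns. Each hairpin is on the strand of its host and none overlaps an exon of an annotated host transcript. Host levels were not measured in these libraries. The palindrome CUGCAG, known from RNAs cut by IRE1, was in 0 of the 3 hairpins and in 7.46% of the 1005 mouse hairpins in the RefSeq table, either strand being the same word; this says only that these letters are not in these hairpins.

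The members' seed also overlaps that of another family by a shift of 1 base. Of the 1679 mature microRNAs, 10 hold bases 2 to 7 of the members at positions 3 to 8, among them the miR-15 and miR-16 strands, known in mammals as repressors of cell cycle genes. The shared letters are in capitals:
miR-15a-5p: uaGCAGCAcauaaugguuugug
miR-16-5p: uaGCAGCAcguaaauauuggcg
The table names microRNAs by identifier and the tables used here pair no other identifier with a name, so 0 of the seed-related microRNAs, of the 5p strands and of the markers of other cell types could be matched to a row, and none of them is given a value.

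Total counts ranged from 175165 in compound-deficient replicate 4 to 1403393 in Xbp1-deficient replicate 3, so depth differed between groups. The mean total was 524042 for compound deficiency, 518607 for the wild type of that line, 1065596 in Xbp1-deficient cells and 825763 in the Xbp1-line wild type. Levels are CPM, counts brought to a common library total after scaling by the trimmed mean of M values (TMM), and errors are SD of 4 libraries. In bulk samples, fewer cells of a type and less RNA per cell cannot be told apart.

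Both members were moderately abundant and miR-103-3p was the more abundant in each of the 16 libraries. By mean level miR-103-3p ranked 36 and miR-107-3p 72 of 255. Raw counts ran from 621 to 3241 for miR-103-3p and from 115 to 613 for miR-107-3p, so counting error alone was 1.76% to 4.01% and 4.04% to 9.33% of the value. Together the pair took 0.426% ± 0.0328 of a library's counts in compound-deficient cells, 0.406% ± 0.0360 in wild-type cells of that line, 0.276% ± 0.0398 in Xbp1-deficient cells and 0.355% ± 0.0533 in the Xbp1-line wild type. Within groups the SD of log2 CPM was 0.17 for miR-103-3p and 0.21 for miR-107-3p, against a median of 0.50 over the 255 microRNAs. A smaller SD was found for 20 and 38 of them. The median takes in microRNAs of much lower counts, whose counting error is larger. MicroRNAs of matched level were not compared, so a low spread is not shown to be particular to the pair.

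In compound-deficient cells, miR-103-3p stood at 3482, 3926, 4066 and 3282 CPM in replicates 1 to 4. In the compound-line wild type it stood at 3293, 3424, 3236 and 3281 CPM in replicates 1 to 4. These groups overlapped, since deficient replicate 4 lay within the wild-type values. In Xbp1-deficient cells it stood at 2266, 2333, 2308 and 3065 CPM in replicates 1 to 4. In the Xbp1-line wild type it stood at 2780, 2366, 3251 and 3393 CPM in replicates 4, 5, 6 and 8. Here too the groups overlapped, through deficient replicate 4 and wild-type replicate 5.

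Mean miR-103-3p was highest in compound-deficient cells (3689 ± 368 CPM), followed by the wild type of that line (3308 ± 80.8), the Xbp1-line wild type (2947 ± 468) and Xbp1-deficient cells (2493 ± 382). Each neighbouring pair in that order overlapped.

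For miR-107-3p, compound-deficient replicates 1 to 4 stood at 645, 531, 795 and 608 CPM. The compound-line wild type stood at 374, 487, 573 and 594 CPM in replicates 1 to 4. The groups overlapped, with deficient replicate 2 among the wild-type values. Xbp1-deficient replicates 1 to 4 stood at 405, 423, 492 and 436 CPM. The Xbp1-line wild type stood at 562, 497, 599 and 547 CPM in replicates 4, 5, 6 and 8. Every Xbp1-deficient library lay below every wild-type library of its line, by as little as the step between 492 and 497 CPM.

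The order of group means differed from that of miR-103-3p in the middle: miR-107-3p was highest in compound-deficient cells (645 ± 111 CPM), followed by the Xbp1-line wild type (551 ± 42.1), the compound-line wild type (507 ± 100.2) and Xbp1-deficient cells (439 ± 37.9). Neighbours in that order overlapped for this member as well. Both members thus had their highest mean in compound-deficient and their lowest in Xbp1-deficient cells, with the wild types between, on the TMM scale; with upper-quartile scaling the fitted miR-103-3p change in compound-deficient cells turned below 0.

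**Figure D1:**
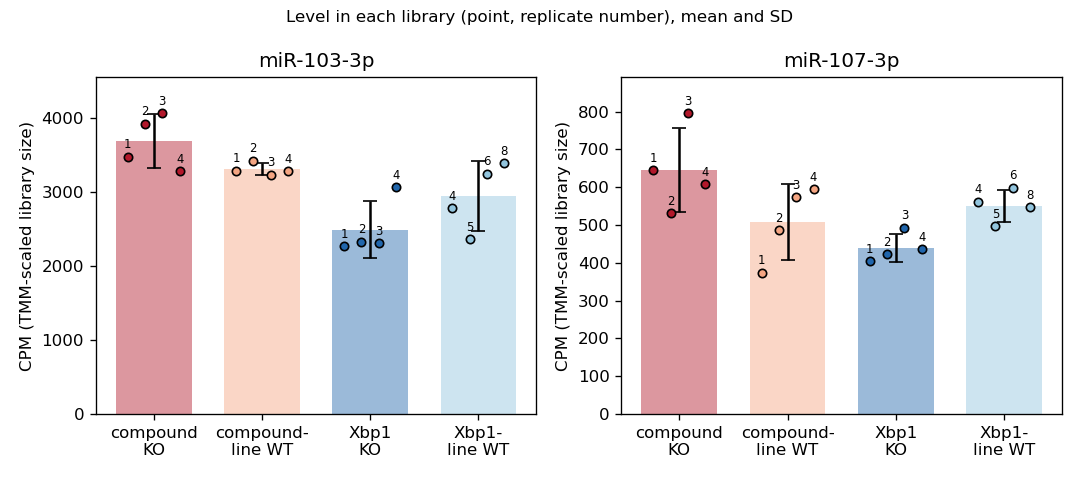
TMM CPM of miR-103-3p (left) and miR-107-3p (right) in the 16 libraries: points are libraries with their replicate numbers, bars are group means and error bars are SD (n = 4). The compound-deficient points (3282 to 4066 and 531 to 795 CPM) lie above all Xbp1-deficient points (2266 to 3065 and 405 to 492 CPM), and in each line the deficient and wild-type means are nearer to each other. For miR-103-3p the compound-line wild-type points (3236 to 3424 CPM) also lie above all Xbp1-deficient points. On the authors' deposited log2 values they overlapped, and the share of the 255 microRNAs apart between these groups was not counted. Compound-deficient libraries lay wholly above Xbp1-deficient libraries for 4.71% of the 255.

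Changes were taken from edgeR's quasi-likelihood fit of all 255 microRNAs in the 16 libraries. The pair was selected on results of these same libraries, with both members among the microRNAs called between the deficient genotypes, so log2 fold changes, standard errors (SE) and 95% intervals of the members are a description and no p-value is given. A microRNA is called where its adjusted p over the 255 lay under 0.05. The comparisons share libraries, so their values are not independent of each other.

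In compound-deficient cells against the wild type of their line, the log2 fold change of miR-103-3p was 0.16, with an SE of 0.14 and an interval of −0.13 to 0.44. That of miR-107-3p was 0.35, with an SE of 0.17 and an interval of −0.0034 to 0.70. The summed pair, at 4334 ± 422 CPM in compound-deficient cells and 3815 ± 108 CPM in the wild type, gave 0.18, with an interval of −0.08 to 0.45. Of the members, 0 of 2 were called, where 5.88% of the 255 were in either direction and 3.53% as higher. Neither member's groups were apart, as those of 9.8% of the 255 were. The median change of all 255 was 0.04. With upper-quartile scaling that median was −0.24 and miR-103-3p turned to −0.12. Relative to the median miR-103-3p stood at 0.11 under both scalings, a distance that a change of scaling can hardly move.

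In Xbp1-deficient cells against the wild type of their line, both members had negative values. For miR-103-3p the log2 fold change was −0.24, with an SE of 0.14 and an interval of −0.53 to 0.04. For miR-107-3p it was −0.33, with an SE of 0.17 and an interval of −0.67 to 0.02. The summed pair stood at 2932 ± 383 CPM in Xbp1-deficient cells and 3499 ± 499 CPM in the wild type, which is −0.25 on that scale, with an interval of −0.52 to 0.01. For miR-103-3p the value was −0.14 without Xbp1-deficient replicate 1, also −0.14 without wild-type replicate 8, and −0.11 with upper-quartile scaling. Called were 0 of 2 members, where 2.35% of the 255 were in either direction and 1.96% as lower. In CPM, the miR-107-3p libraries of the deficient group lay wholly below the wild type, as did those of 7.06% of the 255 microRNAs. Apart in either direction were 11.8%. On the deposited log2 values the miR-107-3p groups overlapped, through deficient replicate 3 and wild-type replicate 5. Against the median change of all 255, −0.07, the members stood at −0.18 and −0.26.

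The direct question, whether compound loss changed the members differently from loss of Xbp1, is the difference of both changes. It was 0.40 for miR-103-3p (SE 0.19, interval −0.0039 to 0.80), 0.68 for miR-107-3p (SE 0.24, interval 0.18 to 1.17) and 0.44 for the pair (SE 0.18, interval 0.06 to 0.82). This difference contains the contrast between the deficient genotypes, which counts as used in choosing the pair. Its values can thus lie too far above 0, and the intervals are no test. For the difference of both changes edgeR called 0 of 255 microRNAs (0%), the members included, with 26 at an unadjusted p under 0.05, and DESeq2 and limma voom called 0. For miR-107-3p the difference was 0.45 without compound-line wild-type replicate 1 and 0.46 without compound-deficient replicate 3. For miR-103-3p it was 0.23 without Xbp1-deficient replicate 1, 0.23 without Xbp1-line wild-type replicate 8 and 0.25 without compound-deficient replicate 3. With upper-quartile scaling, where the median of all 255 was −0.36, the difference was −0.017 for miR-103-3p and 0.28 for miR-107-3p. Relative to the median, miR-103-3p stood at 0.34 with that scaling and 0.36 with TMM, and miR-107-3p at 0.63 and 0.64. Such a distance hardly moves with scaling by its construction, so it is no check on the value of −0.017.

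The deficient genotypes were also set against each other directly. The log2 fold change of compound-deficient over Xbp1-deficient cells was 0.57 for miR-103-3p (SE 0.14, interval 0.28 to 0.85), a ratio of 1.48, and 0.56 for miR-107-3p (SE 0.17, interval 0.21 to 0.91), a ratio of 1.47. For the sum it was 0.56 (SE 0.13, interval 0.30 to 0.83). All 4 compound-deficient libraries lay above all 4 Xbp1-deficient libraries for both members, as they did for 4.71% of the 255 microRNAs, with 11.8% apart in either direction. Both members were among those called as higher, which made up 5.1% of the 255, while 7.45% were called in either direction. Since this contrast counts as used in choosing the pair, nothing is read from that count. Of all tested, 71 of the 255 microRNAs had a larger fold change in either direction than miR-103-3p. In CPM, all 4 compound-line wild-type libraries also lay above all 4 Xbp1-deficient libraries for miR-103-3p. These were 3236 to 3424 against 2266 to 3065 CPM, and for the sum 3666 to 3910 against 2670 to 3500 CPM. Those groups overlapped for miR-107-3p, and for miR-103-3p on the authors' deposited log2 values (from 11.58 against up to 11.60). The share of the 255 apart between those groups was not counted.

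This difference between the deficient genotypes is, by construction, the sum of the difference of the changes and the difference between the wild types. Between the wild types, compound line against Xbp1 line, the log2 difference was 0.17 for miR-103-3p (SE 0.14, interval −0.12 to 0.45), −0.12 for miR-107-3p (SE 0.17, interval −0.47 to 0.23) and 0.13 for the sum (SE 0.13, interval −0.14 to 0.39). With upper-quartile scaling the wild types differed by 0.34 for miR-103-3p and 0.037 for miR-107-3p, and with no filter miR-103-3p differed by 0.067. Without compound-line wild-type replicate 1 the miR-107-3p difference was 0.046. The groups overlapped for both members, where those of 4.31% of the 255 were apart and those of 1.96% lay below. edgeR called 0 of 255 microRNAs here (0%), with 24 at an unadjusted p under 0.05, while DESeq2 called 3 and limma voom 0. With TMM, the 0.57 of miR-103-3p thus split into 0.40 and 0.17, and the 0.56 of miR-107-3p into 0.68 and −0.12. With upper-quartile scaling the 0.32 of miR-103-3p split into −0.017 and 0.34, nearly all of it between the wild types, and the 0.31 of miR-107-3p into 0.28 and 0.037.

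**Figure D2:**
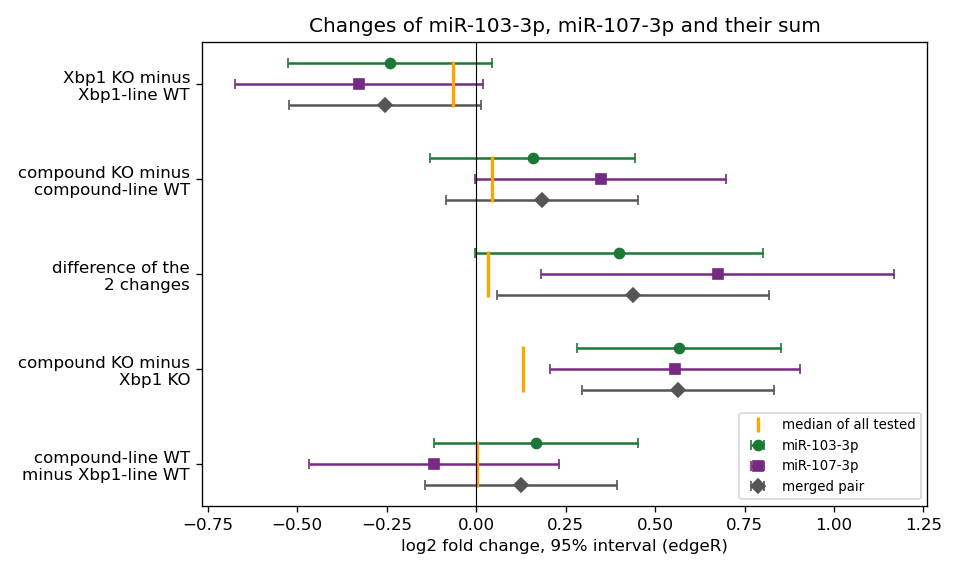
Log2 fold changes with 95% intervals from edgeR for miR-103-3p (circles), miR-107-3p (squares) and their sum (diamonds) in the 5 comparisons; orange ticks mark the median of all 255 tested microRNAs. The values lie below 0 in Xbp1-deficient cells (−0.24 and −0.33) and above 0 in compound-deficient cells (0.16 and 0.35, where upper-quartile scaling turns miR-103-3p to −0.12). The intervals between the deficient genotypes start at 0.28 and 0.21, in a contrast that counts as used in choosing the pair.

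A change of scaling shifts the values of all microRNAs in a fit by nearly the same amount. Their distance from the median is thus nearly fixed in advance and is no check of the result. Between the deficient genotypes the median of all 255 log2 fold changes was 0.13 with TMM, 0.08 with DESeq2 size factors, 0.19 with total counts alone and −0.11 with upper-quartile scaling. The miR-103-3p value moved with it, at 0.57, 0.52, 0.63 and 0.32. Relative to that median miR-103-3p stood at 0.44, 0.44, 0.44 and 0.43, and miR-107-3p at 0.43, 0.43, 0.43 and 0.42. Over the 18 alternatives and the chosen setting, the value relative to the median was 0.39 to 0.56 for miR-103-3p and 0.33 to 0.56 for miR-107-3p.

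The call of this difference changed with the way of fitting. This contrast counts as used in choosing the pair, so refits of the same libraries are no check of the difference or of its size. Of 18 alternatives, miR-103-3p was called in 10 and miR-107-3p in 3. With 1 library left out, miR-107-3p was called in 0 of 8 fits. Likewise miR-103-3p was called in 3 of 8, the fits without compound-deficient replicate 1, compound-deficient replicate 4 or Xbp1-deficient replicate 4. It was not called without compound-deficient replicate 2 or 3 or without Xbp1-deficient replicate 1, 2 or 3. Over all microRNAs, calls in these 8 fits ranged from 0 to 28, against 19 with all libraries. A lost call is thus not shown to be particular to the members. Depth moved with the groups, so depth and genotype cannot be fully told apart here. When log2 of the total count entered as covariate, miR-103-3p had a log2 fold change of 0.48 and miR-107-3p of 0.65. Neither was then called, and calls over all microRNAs were 3, against 19 without the covariate.

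**Figure D3:**
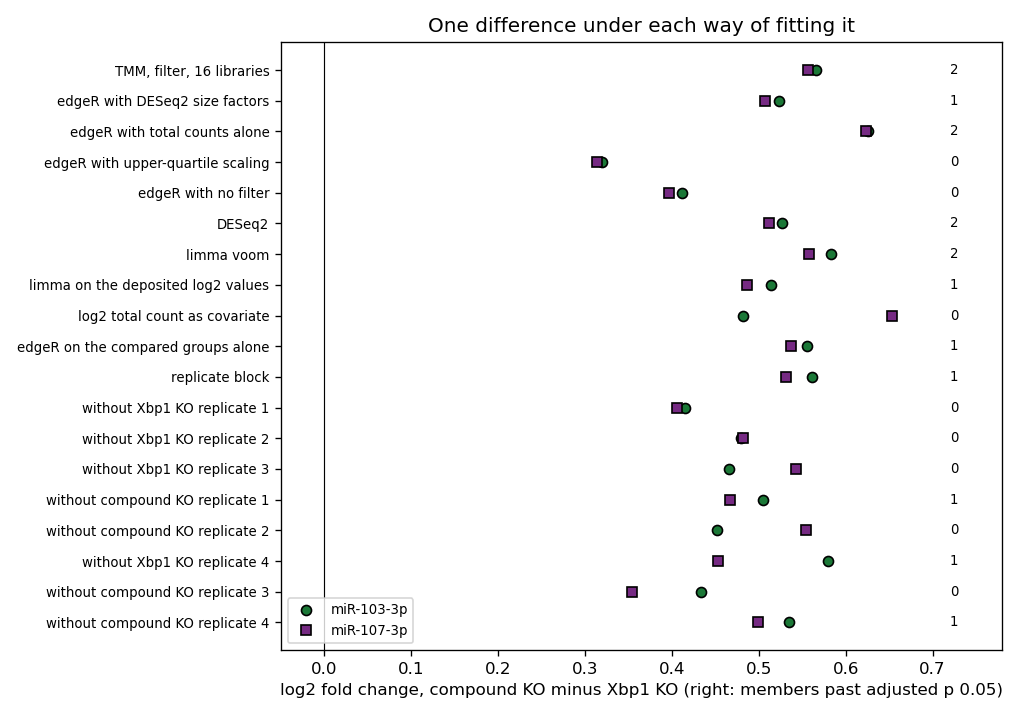
Log2 fold change of compound-deficient over Xbp1-deficient cells for miR-103-3p (circles) and miR-107-3p (squares) under each way of fitting, with the number of members past an adjusted p of 0.05 at the right. All values lie right of 0, from 0.31 to 0.65, while the number called varies between 0 and 2. Over all microRNAs, calls ranged from 0 to 28 with 1 library left out. The values are refits of a contrast that counts as used in choosing the pair.

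A ratio within a library needs no scaling, and it shows how the reads were split between the nearly identical strands. Of the pair's reads, miR-107-3p took 14.9% ± 2.01 in compound-deficient cells, 13.3% ± 2.42 in wild-type cells of that line, 15.1% ± 2.11 in Xbp1-deficient cells and 15.9% ± 1.54 in the Xbp1-line wild type (SD, n = 4). The libraries of compared groups overlapped in each of the 4 comparisons between groups. Between the deficient genotypes the log2 ratio of miR-103-3p to miR-107-3p differed by 0.03 (SE 0.17, from the spread of the libraries). It differed by −0.20 (SE 0.20) in the compound line, by 0.09 (SE 0.15) in the Xbp1 line and by 0.32 (SE 0.18) between the wild types.

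Within groups, the 95% intervals of the split did not overlap between some libraries. In compound-deficient cells the share was 15.6%, 11.9%, 16.4% and 15.6% in replicates 1 to 4, and the exact (Clopper-Pearson) 95% interval of replicate 2, 10.4% to 13.6%, lay below that of replicate 3, 15.0% to 17.8%. In the compound-line wild type the share was 10.2%, 12.4%, 15.1% and 15.3% in replicates 1 to 4, and the interval of replicate 1 was 8.64% to 11.9%. In Xbp1-deficient cells it was 15.1%, 15.4%, 17.6% and 12.4% in replicates 1 to 4, with intervals of 16.3% to 18.9% for replicate 3 and 11.2% to 13.8% for replicate 4. In the Xbp1-line wild type it was 16.8%, 17.4%, 15.6% and 13.9% in replicates 4, 5, 6 and 8. These intervals cover counting error only and treat reads as independent molecules, which reads without molecular identifiers are not. They can thus be too narrow, and the libraries set apart were picked as extremes of their group. Xbp1-deficient replicate 4, the highest library of its group for miR-103-3p, was thus the lowest for the share of miR-107-3p, and its miR-107-3p level of 436 CPM lay inside its group.

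**Figure D4:**
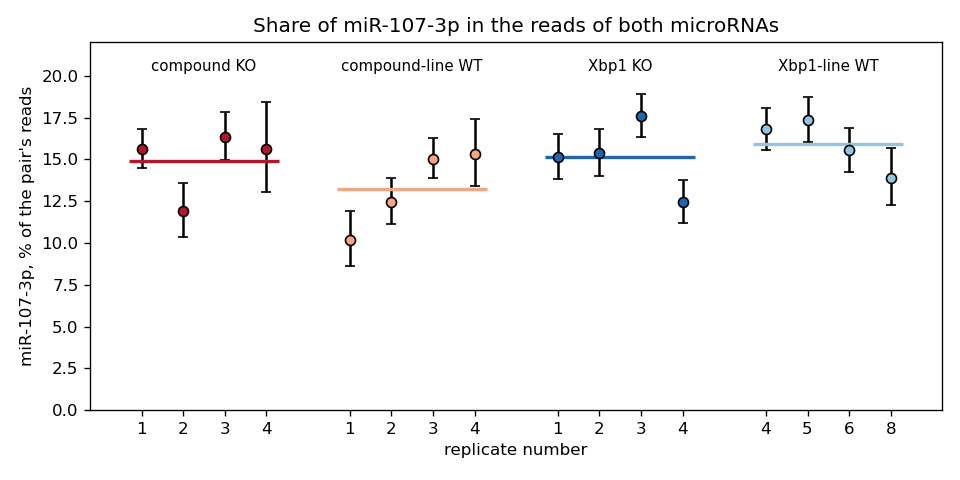
Share of miR-107-3p in the reads of both microRNAs for each library, by group and replicate number: points are libraries, error bars are exact 95% binomial intervals and lines are group means. Shares run from 10.2% to 17.6% and all 4 groups overlap.

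The members' patterns over the 16 libraries were alike only in part. Pearson's r of their log2 CPM was 0.58 and Spearman's rho 0.49, and with group means subtracted r was 0.19 and rho 0.25. The values without subtraction draw on the contrast between the deficient genotypes, which counts as used in choosing the pair. Of the 253 other microRNAs, 16 had a higher r with miR-103-3p and 9 a higher r with miR-107-3p than the pair had with each other, and with group means subtracted these were 81 and 78. The microRNAs most like miR-103-3p were MIMAT0000221 (r 0.91), MIMAT0000379 (r 0.85) and MIMAT0000515 (r 0.77). Those most like miR-107-3p were MIMAT0004187 (r 0.85), MIMAT0000210 (r 0.78) and MIMAT0000673 (r 0.78). With group means subtracted, MIMAT0000221 (r 0.90) and MIMAT0004187 (r 0.72) still led, while the other places went to different microRNAs. These correlations are descriptions over libraries that share depth and scaling, and the tables used here give these identifiers no names.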

How the data were processed

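Per the labels' protocols, 5000 to 50000 cDC1s per sample were sorted into Qiazol, and TruSeq small RNA libraries were size selected. Bowtie 1.1.2, limma 3.42.2, cutadapt 1.8.1 and FastQC 0.11.3 were used, per the submitters' processing notes, which give no roles here. The authors deposited raw counts of 853 mature microRNAs, 45 at 0 throughout, and log2 values of 473, which were recomputed from the counts as log2 CPM on TMM-scaled library sizes to within 4.97e-14.

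From the counts, edgeR 4.0.16 (R 4.3.3) used TMM, filterByExpr (minimum count 10) and 1 quasi-likelihood fit of 4 group means over 16 libraries without a replicate block, adjusted by Benjamini-Hochberg over 255 microRNAs. The lowest share of a library's counts that these held was 99.9%. Host introns came from GENCODE M21 and sequences from RefSeq, both of the GRCm38 build the submitters name. In the edgeR fits the pair's sum replaced both rows under the same scaling. DESeq2 and limma voom estimated their scaling anew with the sum in place of both rows. Log2 CPM used a prior count of 1. DESeq2 1.42.0, limma 3.58.1, other scalings, no filter, left-out libraries, a depth covariate and a replicate block were alternatives. The steps were tested on simulated data. Chi-square over its degrees of freedom was 15.7 or more for every pair within a group, so all libraries were kept as separate samples.

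The members and lists were chosen with earlier results of these data known. Seed-related microRNAs, 5p strands and markers of other cells matched 0 rows and were not tested. Named are the members and the 3 microRNAs of highest correlation with each.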

Additional observations from a re-analysis of the deposited data

Results flagged for a closer look

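For 2 values, 1 library lay so far from the rest of its group that the gap, over the range of the group's 4 libraries, passed Dixon's 95% limit. About 1 in 20 groups would do so by chance, and 16 groups of values were examined. Xbp1-deficient replicate 4 had a log2 CPM of 11.58 for miR-103-3p, with a gap of 0.904 of the range. Without it the log2 fold change of compound-deficient over Xbp1-deficient cells was 0.58 for miR-103-3p and 0.45 for miR-107-3p. In compound-deficient replicate 2 the share of miR-107-3p in the pair's reads was 11.9%, with a gap of 0.834. Without that library the same fold changes were 0.45 and 0.55.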

How the results depend on the processing

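The values relative to the median of all tested microRNAs were added after the data were seen. Between the deficient genotypes, a contrast that counts as used in choosing the pair, both members and their sum were above 0 in all 18 alternatives. With upper-quartile scaling they were 0.32 for miR-103-3p, 0.31 for miR-107-3p and 0.32 for the sum. Members called were 1 with DESeq2 size factors, limma on the deposited log2 values or the compared groups alone, and 0 with upper-quartile scaling, no filter or the log2 total as a covariate, where the summed pair was called 0 times too. MicroRNAs called there numbered 19 (13 higher, 6 lower), and 30 with DESeq2, 11 with limma on the deposited values, 3 with the covariate and 8 with the compared groups alone. The split was 12 higher and 12 lower with DESeq2 size factors, 14 and 1 with total counts, and 4 and 22 with upper quartile.

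In the compound line, miR-103-3p was 0.042 and the sum 0.069 with total counts, and upper-quartile scaling gave −0.12 for miR-103-3p, 0.068 for miR-107-3p and −0.10 for the sum. MicroRNAs called there numbered 15 (9 higher, 6 lower), 24 with upper quartile (3 and 21), 19 with total counts (8 and 11) and 9 with the compared groups alone. In the Xbp1 line upper quartile gave −0.11 for miR-103-3p, −0.21 for miR-107-3p and −0.12 for the sum, and microRNAs called numbered 6 (1 higher, 5 lower), 15 with no filter, 17 with DESeq2, and 11 with the compared groups alone. Upper quartile gave 2 higher and 3 lower. The difference of the changes was −0.017 for miR-103-3p, 0.28 for miR-107-3p and 0.025 for the sum with upper quartile, with 3 microRNAs called, and 2 with no filter. Between the wild types the sum was 0.29 with upper quartile, and 14 microRNAs were called with no filter, 3 with DESeq2 and 2 with the compared groups alone, against 0. The cause of these shifts was not tested. In these 4 comparisons no alternative called a member. Mean miR-103-3p in the compound-line wild type was 3522 on total counts. With group means subtracted, 1 of the 3 microRNAs most like each member was kept.

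With 1 library left out, microRNAs called between the deficient genotypes ranged from 0 to 28, members called and the summed pair called from 0 to 1, miR-103-3p from 0.41 to 0.58, miR-107-3p from 0.35 to 0.55 and the sum from 0.41 to 0.56. Calls fell to 4, 0 and 9 without Xbp1-deficient replicate 1, 2 or 3, and to 4, 1 and 12 without compound-deficient replicate 2, 3 or 4. In the compound line calls ranged from 6 to 20, with 6 without deficient replicate 3 and 7 without wild-type replicate 2, miR-103-3p from 0.038 to 0.14, miR-107-3p from 0.13 to 0.36 and the sum from 0.055 to 0.16. In the Xbp1 line calls ranged from 2 to 8, with 3 and 2 without deficient replicate 1 or 3, and 3 without wild-type replicate 6 or 8, miR-103-3p from −0.31 to −0.14, miR-107-3p from −0.37 to −0.23 and the sum from −0.31 to −0.16. The difference for miR-103-3p ranged from 0.23 to 0.40, that for miR-107-3p from 0.45 to 0.68 and that for the sum from 0.27 to 0.42, and between the wild types calls ranged from 0 to 2, with 2 without Xbp1-line replicate 6.

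Deviations of same-numbered libraries correlated by −0.26 to 0.26 in the compound line and by −0.07 to 0.10 between the deficient genotypes. Libraries of different numbers were not compared, so these values cannot tell whether the numbers stand for pairs. With a replicate block, microRNAs called in the compound line were 4, and between the deficient genotypes members called were 1, with 0.56 for miR-103-3p and 0.53 for miR-107-3p. In the Xbp1 line and between the wild types the groups share only 1 number, so no block was fitted there. The lowest counts, 115 for miR-107-3p and 621 for miR-103-3p, both in compound-deficient replicate 4, limit precision most there.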
